A study of Mus musculus with 6 samples.

Results

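The extracellular matrix genes described here are 56 mouse genes for collagens, laminins and other matrix proteins, for the enzymes that fold, crosslink and cut them, and for integrins. They were chosen by name, with earlier results of these data known. A gene entered through any non-control probe whose RefSeq accession maps to it. All 56 had a probe on the arrays. Of these, 49 were well above background on at least 3 of 6 arrays and were tested, among 25899 features tested in all. The other 7 (Col5a2, Postn, Tnc, Mgp, Lum, Lox and Loxl3) were not well above background on any array, so they carry no comparison.

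The extracellular matrix is the protein scaffold that cells secrete around themselves. Basement membranes are thin sheets built from laminin trimers, a type IV collagen network, nidogens and heparan sulfate proteoglycans, and the early mouse embryo lays them down before most other matrix. Interstitial collagens and elastic microfibrils make the looser matrix of connective tissue. Collagen chains are hydroxylated, folded with a dedicated chaperone and later crosslinked by lysyl oxidases, while metalloproteinases and their inhibitors control turnover. Cells hold the matrix through integrins, which are paired alpha and beta chains in the membrane. TGF-beta is a classical inducer of matrix genes in fibroblasts, and latent TGF-beta is itself stored on microfibrils.

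The cells were J1 mouse embryonic stem cells, a line from the inner cell mass of strain 129S4/SvJae, so both groups share 1 line. All cells were adapted to gelatin, grown on gelatin-coated plates and kept in Knockout DMEM with Knockout Serum Replacement and LIF at 1000 U/mL, a cytokine that keeps these cells undifferentiated. One group received DMSO, the solvent, for 24 h (3 arrays). The other received 3 µM SB431542 for 24 h (3 arrays), which blocks the kinases ALK4, ALK5 and ALK7, the receptors through which activin, Nodal and TGF-beta signal. The comparison addresses which transcripts respond to this inhibition in self-renewal medium. The labels do not say that replicates came from separate cultures, so p-values here cover only the spread among these arrays and this could be technical. Levels are log2 values of the array signal relative to the array's 75th percentile, changes are SB431542 minus DMSO with the standard error from limma (3 arrays per group), and "rose" or "fell" means a limma p adjusted over all 25899 features under 0.05.

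The share of spots well above background was 63.9% to 66.2% per array, with 0 saturated spots. The correlation between arrays over features was 0.9973 to 0.9976 among DMSO arrays, 0.9949 to 0.9965 among SB431542 arrays and 0.9911 to 0.994 across groups. The median SD over features was 0.07 in DMSO and 0.12 in SB431542. SB431542 replicate 3 was on slide 2 and scan 2, and the other 5 arrays on slide 1 and scan 1. All 10 embryonic stem cell markers were well above background on all 6 arrays. Their summed level ran from 685 to 710 times the 75th-percentile signal in DMSO and from 508 to 561 in SB431542, with 4 of 10 lower past the threshold (Dppa5a, Utf1, Tdgf1 and Fgf4). Dppa5a made up 50.4% to 55.8% of this sum, and the other 9 markers summed to 312 to 317 with DMSO and 252 to 274 with SB431542. Pou5f1, Nanog, Sox2, Zfp42, Esrrb and Klf4 did not pass, with changes from -0.29 to 0.12. Of 5 trophoblast markers tested, 2 rose (Gata3 and Tfap2a) and 0 fell, and of 5 neuroectoderm markers, 0 rose and 2 fell (Nes and Sox1). Of the other trophoblast markers, Cdx2 (0.49), Eomes (-0.02) and Krt7 (-0.57) did not pass, and Elf5 and Hand1 were too dim to test. Of the other neuroectoderm markers, Tubb3 (0.22), Pax6 (0.14) and Neurod1 (0.09) did not pass. Among all features 5.19% rose and 7.39% fell. All 5 genes of the inhibitor check, targets of the blocked receptors, fell, with log2 changes from -9.43 to -1.34.

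More of the matrix genes fell than rose with SB431542. Of the 49 tested, 15 fell (30.6%), against 7.39% of all features, and 3 rose (6.12%), against 5.19% of all features. Of the features with a gene symbol, 8.83% fell and 6.62% rose, 15.4% in all. The members' median log2 change was -0.24, against 0.02 over all features, and 36 of 49 estimates were below 0. The 3 arrays of one group lay entirely above those of the other for 36 of 49 genes (73.5%), while the same held for 36% of all features. SB431542 was lower in 29 of these and higher in 7, against 17.3% and 18.6% of all features. The falls were mostly modest, since 7 reached 1.5-fold. Those 7 were Col18a1, Col1a2, Serpinh1, Mmp14, Lama5, Mmp9 and Loxl1. The rises were of Tgfbi, Thbs2 and Vcan. The share of all features is the reference for these counts, and the members were not compared with it by a test. The members were chosen with earlier results of these data known. How far that choice shaped these shares was not tested.

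Of the 18 members that changed, 9 stayed past the threshold under each of 18 alternative settings, which include leaving out each array in turn. These were 7 falls (Col18a1, Col1a2, Serpinh1, Mmp14, Lama5, Loxl1 and Agrn) and 2 rises (Tgfbi and Thbs2). The other 9 had smaller changes or dim probes and lost the call under at least 1 setting. Of the settings, 1 is the main fit at a threshold of 0.01, which by itself leaves 7 falls and 2 rises. A member with a main adjusted p above 0.01 thus lost its call by construction. In the setting that tests each probe, only a gene's brightest probe was counted here. Fewer cells of a type and less RNA per cell cannot be told apart in such bulk RNA.

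**Figure D1:**
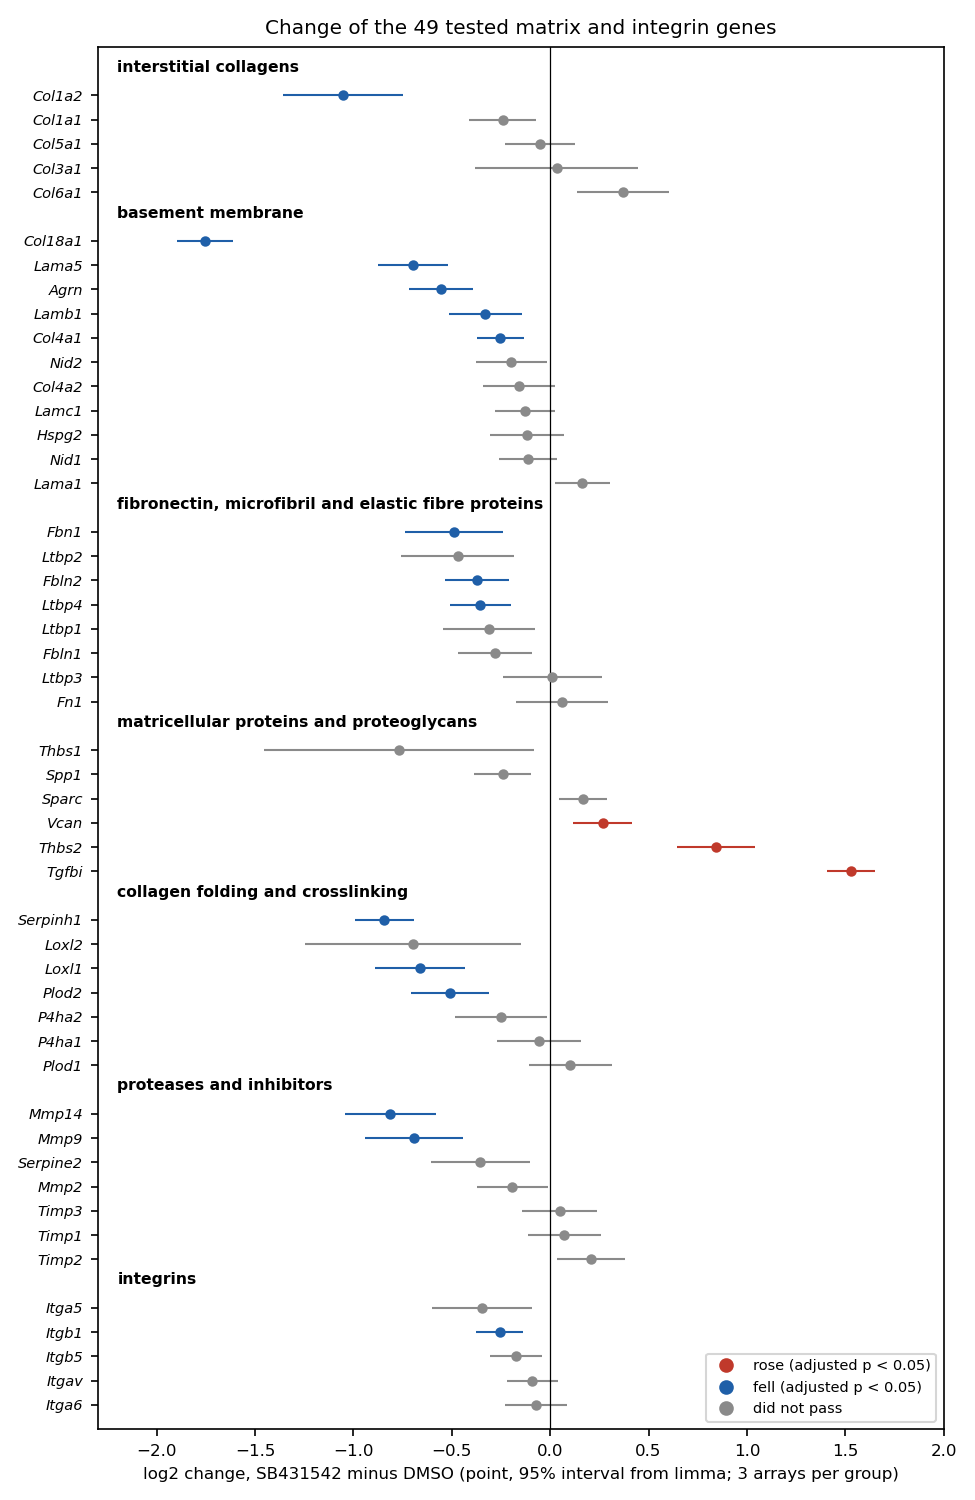
Log2 change of each of the 49 tested genes (horizontal axis, SB431542 minus DMSO), grouped by role, with points for the limma estimate and bars for its 95% interval from 3 arrays per group. Blue marks the 15 genes that fell, red the 3 that rose and grey the 31 that did not pass the adjusted threshold of 0.05; Col18a1 lies farthest to the left (-1.75) and Tgfbi farthest to the right (1.53).

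The promoters shown are those of 4 genes, the members past the threshold with the largest falls and the largest rises. The windows are the 250 bases before the annotated start, from RefSeq on build GRCm38.p6, written 5′ to 3′ on the gene's strand. Capitals mark CAGAC or, on the other strand, GTCTG, the core of a Smad-binding element, Smads being the transcription factors that the blocked receptors activate. Col18a1 has a pair of annotated start sites and so a window for each.
Col18a1, chr10:77113706-77113955, minus strand: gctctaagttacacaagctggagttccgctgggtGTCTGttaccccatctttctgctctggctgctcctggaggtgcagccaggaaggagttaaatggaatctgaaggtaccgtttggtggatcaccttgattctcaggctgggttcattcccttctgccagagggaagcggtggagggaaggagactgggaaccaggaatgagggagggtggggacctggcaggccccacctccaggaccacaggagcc
Col18a1, chr10:77166531-77166780, minus strand: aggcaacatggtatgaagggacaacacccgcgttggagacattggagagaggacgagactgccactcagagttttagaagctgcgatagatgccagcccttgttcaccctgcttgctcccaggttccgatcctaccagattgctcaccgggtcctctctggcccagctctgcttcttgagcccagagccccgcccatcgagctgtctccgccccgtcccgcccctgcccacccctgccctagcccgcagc
Col1a2, chr6:4505368-4505617, plus strand: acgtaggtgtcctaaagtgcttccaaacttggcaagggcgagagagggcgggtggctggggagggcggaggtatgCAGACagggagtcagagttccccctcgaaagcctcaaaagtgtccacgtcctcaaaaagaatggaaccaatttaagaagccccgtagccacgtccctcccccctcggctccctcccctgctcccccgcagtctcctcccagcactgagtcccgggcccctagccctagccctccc
Tgfbi, chr13:56609336-56609585, plus strand: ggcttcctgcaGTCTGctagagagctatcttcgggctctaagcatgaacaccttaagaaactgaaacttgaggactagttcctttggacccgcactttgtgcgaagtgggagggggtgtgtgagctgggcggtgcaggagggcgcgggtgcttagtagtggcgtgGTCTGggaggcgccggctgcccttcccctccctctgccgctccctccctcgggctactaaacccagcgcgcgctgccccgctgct
Thbs2, chr17:14694263-14694512, minus strand: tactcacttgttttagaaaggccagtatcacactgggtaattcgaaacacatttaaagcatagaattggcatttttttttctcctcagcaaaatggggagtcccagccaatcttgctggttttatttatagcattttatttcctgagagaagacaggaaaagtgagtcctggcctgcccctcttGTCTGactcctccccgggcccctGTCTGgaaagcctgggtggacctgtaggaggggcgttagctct

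A match to a motif is a description of these letters and not a measured binding site. A window was found for 39 of the 56 genes (48 windows). CAGAC or GTCTG occurred in 24 of these (50.0%), against 42.2% of all 32851 windows in the table. It occurred in 6 of the 16 windows of genes that fell (37.5%), in 2 of 3 of genes that rose, and in 14 of 25 of tested genes that did not pass (56%). The 16 windows belong to 12 genes and the 25 to 22, so a gene with several windows counts more than once. Such windows can overlap, as for Ltbp4, and shares per gene were not computed. The windows of Tgfbi and Thbs2 above held 2 matches each, that of Col1a2 1, and those of Col18a1 1 and 0. The AP-1 motif TGANTCA, which reads the same on both strands, was in 1 window (2.08%), against 6.75% of all windows. The Sp1 motif GGGCGG, with CCGCCC as its reading on the other strand, was in 33 windows (68.8%), against 32.7% of all windows, with 14 of 16 for genes that fell (87.5%) and 15 of 25 for those that did not pass (60%). None of the motifs contains another. The base composition of the windows was not matched, and the GC content of those printed ranged from 46.8% to 62.4%. It ranged from 55.2% (Mmp14) to 83.6% (Agrn) in the windows of genes that fell. In those of tested genes that did not pass it ranged from 35.2% (Col3a1) to 78.8% (Serpine2).

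The basement membrane genes were all measured, and 5 of 11 fell while 0 rose (median change -0.20). Col18a1 encodes the collagen XVIII chain, a heparan sulfate proteoglycan of basement membranes whose end fragment is endostatin. Its level was 4.40, 4.31 and 4.29 on the DMSO arrays and 2.52, 2.59 and 2.63 on the SB431542 arrays. The groups were far apart, with a change of -1.75 ± 0.06 (3.37-fold lower, adjusted p = 0.000177), the largest fall among the members and rank 84 among the 1913 features that fell. A second Col18a1 probe changed by -1.49 ± 0.05. Both probes were thus lower with the inhibitor.

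Lama5, the laminin alpha chain of many mature basement membranes, read 4.53, 4.55 and 4.53 with DMSO and 3.90, 3.91 and 3.70 with SB431542. The lowest value was on SB431542 replicate 3, and the groups did not overlap. The change was -0.70 ± 0.07 (1.62-fold lower, adjusted p = 0.00354). Lama1, an alpha chain of early embryonic basement membranes, was higher on each SB431542 array without passing the test. It read 3.72, 3.67 and 3.57 against 3.82, 3.81 and 3.82, a change of 0.16 ± 0.06 (adjusted p = 0.13). The ratio of Lama5 to Lama1 within an array, set to 0 at its DMSO mean on the log2 scale, lay between -0.07 and 0.07 with DMSO and between -0.998 and -0.788 with SB431542. The groups did not overlap, and the change was -0.86. Its exact two-sided permutation p was 0.1, the smallest that this test can give with 3 against 3 arrays, and 0.175 adjusted over 7 such pairs. The pairs were chosen after the values were seen. The permutation test cannot pass 0.05 at that size, so its p says nothing for or against a difference.

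Agrn, which encodes the proteoglycan agrin, read 5.39, 5.46 and 5.37 with DMSO and 4.94, 4.85 and 4.76 with SB431542. The groups did not overlap, and the change was -0.55 ± 0.07 (1.47-fold lower, adjusted p = 0.00536). Lamb1, a laminin beta chain, read 4.20, 4.13 and 4.11 against 3.92, 3.84 and 3.69, a fall of 0.33 on the log2 scale (SE 0.08, adjusted p = 0.0415). Its partner Lamc1, the gamma chain, changed by -0.13 ± 0.06 and did not pass. Col4a1, a chain of the type IV collagen network, read 0.21, 0.19 and 0.16 against -0.04, -0.08 and -0.08 and fell by 0.25 (SE 0.05, adjusted p = 0.0243). Col4a2, its partner in the same trimer, changed by -0.16 ± 0.07 and did not pass (adjusted p = 0.231). The start sites of Col4a1 and Col4a2 lie 21 bases apart on opposite strands. The ratio of Col4a1 to Col4a2 changed by -0.09 (exact permutation p = 0.3) and that of Lamb1 to Lamc1 by -0.20 (exact permutation p = 0.1). The adjusted p values over 7 pairs were 0.42 and 0.175.

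The falls of Col4a1 and Lamb1 rest on all 6 arrays. Without single arrays the adjusted p of Col4a1 ran from 0.0411 to 0.104, past the threshold only when SB431542 replicate 3 was left out. That of Lamb1 ran from 0.0452 to 0.139, past it only without SB431542 replicate 1. The 6 genes that did not pass had changes from -0.20 to 0.16. Nid2, a nidogen that links laminin to collagen IV, read 3.79, 3.71 and 3.64 against 3.56, 3.59 and 3.41 (-0.20 ± 0.07, adjusted p = 0.148), lower on each SB431542 array than on any DMSO array. Nid1 (-0.11 ± 0.06) and the perlecan gene Hspg2 (-0.12 ± 0.08) had intervals from -0.26 to 0.04 and from -0.31 to 0.07 at their brightest probes. A dimmer Hspg2 probe changed by -0.50 ± 0.16 without passing, lower on each SB431542 array. Dimmer Nid1 probes changed by -0.17 ± 0.20 and -0.28 ± 0.12, also without passing. Extraembryonic endoderm cells are a rich source of basement membrane, and 10 of 12 of their markers were tested. Of these 1 rose (Pdgfra, 0.34 ± 0.05) and 1 fell (Cubn, -0.51 ± 0.10), while among all features 5.19% rose and 7.39% fell. The summed level of the 10 ran from 2.50 to 2.82 times the 75th-percentile signal with DMSO and from 2.29 to 2.54 with SB431542, so the groups overlapped. Cubn made up 21.6% to 30.3% of this sum. The other 9 summed to 1.84 to 2.05 with DMSO and 1.79 to 1.99 with SB431542. The part of these markers in the result was not tested.

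Among the interstitial collagens 1 of 5 fell and 0 rose (median change -0.05). Col1a2, a chain of type I collagen, read -0.75, -0.86 and -0.82 with DMSO and -1.76, -1.69 and -2.13 with SB431542. All SB431542 arrays were lower, replicate 3 the most, and the change was -1.05 ± 0.12 (2.07-fold lower, adjusted p = 0.00499). Col1a1, the other chain of the same trimer, read -2.31, -2.35 and -2.15 against -2.46, -2.55 and -2.52. These groups did not overlap either, but the change of -0.24 ± 0.07 missed the threshold (adjusted p = 0.0813). The log2 ratio of Col1a2 to Col1a1 changed by -0.81, from between -0.13 and 0.10 around the DMSO mean to between -1.08 and -0.60. Its exact permutation p was 0.1, again the smallest possible, and 0.175 adjusted over the 7 pairs.

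Col6a1, a chain of beaded-filament collagen, was dim and higher on each SB431542 array, at -5.18, -5.06 and -5.20 against -4.84, -4.89 and -4.60 (0.37 ± 0.09, adjusted p = 0.0585). Col3a1 (0.03 ± 0.17), which cleared background on 2 of the 3 SB431542 arrays, and Col5a1 (-0.05 ± 0.07) had intervals from -0.38 to 0.45 and from -0.23 to 0.13. Fibroblasts and feeder cells are the usual source of interstitial collagen. Of 10 markers for them, 4 (Twist2, Prrx1, Fap and Dpt) cleared background on 0 arrays. Of the 6 tested, 0 rose and 2 fell. These were Pdgfrb (-0.44 ± 0.08) and Dcn, which was not well above background on any SB431542 array and at least 1.87-fold lower. Dcn passed the filter through DMSO only and so had to be lower. Thy1, Col6a3, Cd34 and S100a4 did not pass, with changes from -0.07 to 0.23. Among all features 5.19% rose and 7.39% fell. The summed level of the 6 ran from 2.03 to 2.21 with DMSO and from 1.97 to 2.11 with SB431542, so the groups overlapped. Thy1 made up 65.7% to 68.7% of this sum. Their part in the fall of Col1a2 was not tested.

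Among fibronectin, microfibril and elastic fibre genes 3 of 8 fell and 0 rose (median change -0.33). Ltbp4, which binds latent TGF-beta and helps elastic fibres to assemble, read 5.32, 5.25 and 5.19 against 4.93, 4.94 and 4.82. The groups were separate and the change was -0.36 ± 0.06 (adjusted p = 0.0191), with -0.32 ± 0.06 at a second probe. Fbln2, a fibulin, read -0.60, -0.53 and -0.58 against -0.86, -0.93 and -1.05 (-0.37 ± 0.07, adjusted p = 0.0193). Fbn1, the fibrillin that forms microfibrils, changed by -0.49 ± 0.10 (adjusted p = 0.0316). With normexp background correction the change of Fbn1 was -0.21.

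These falls are small, and single arrays decide them. The adjusted p of Ltbp4 was 0.0759, 0.0813 and 0.0536 without DMSO replicates 1, 2 and 3, with a range of 0.0343 to 0.0813 over all single arrays. That of Fbln2 passed only without SB431542 replicate 1 or 3 and ranged from 0.028 to 0.0852. That of Fbn1 passed only without DMSO replicate 3 and ranged from 0.0352 to 0.101. The other 5 genes changed by -0.47 to 0.06. Fn1, the gene of fibronectin, which many cells use as their main integrin ligand, did not pass and its groups overlapped, with a change of 0.06 ± 0.10 and an interval from -0.17 to 0.29. Ltbp2 changed by -0.47 ± 0.12 (adjusted p = 0.0546, and 0.0237 without DMSO replicate 1), Ltbp1 by -0.31 ± 0.09 and Fbln1 by -0.28 ± 0.08 (adjusted p = 0.0701, and 0.0453 without DMSO replicate 1). Over single arrays left out, the adjusted p ranged from 0.0237 to 0.164 for Ltbp2 and from 0.0453 to 0.204 for Fbln1. Ltbp3 stood at 0.01 ± 0.10. The 4 latent TGF-beta binding protein genes thus gave 1 fall and 3 changes that did not pass.

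The matricellular proteins and proteoglycans, which modify how cells meet the matrix rather than build it, held all 3 rises, with 3 of 6 tested genes higher and 0 lower past the threshold (median change 0.22). Tgfbi encodes a secreted integrin-binding protein named for its induction by TGF-beta. It read 1.54, 1.53 and 1.48 with DMSO and 3.04, 3.02 and 3.08 with SB431542. The arrays of each group lay close together and far from the other group, with a rise of 1.53 ± 0.05 (2.89-fold higher, adjusted p = 0.000152), rank 26 among the 1344 features that rose. Thus the gene named as TGF-beta induced was higher after 24 h of receptor inhibition.

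Thbs2, a thrombospondin, was dimmer and read -3.49, -3.25 and -3.25 against -2.48, -2.45 and -2.52. The groups did not overlap, and the change was 0.84 ± 0.08 (1.79-fold higher, adjusted p = 0.00276). With normexp background correction it was 0.41. Thbs1, the related gene that can activate latent TGF-beta, had a change of -0.77 ± 0.28 and did not pass (adjusted p = 0.142). It cleared background on all 3 DMSO arrays and 1 SB431542 array, and its groups overlapped. Whether the 2 thrombospondin genes differ in their change was not tested. Vcan, the proteoglycan versican, read -0.69, -0.66 and -0.66 against -0.31, -0.48 and -0.42. Its rise of 0.27 ± 0.06 passed with all arrays (adjusted p = 0.0415) and did not pass when any single array was left out (0.0556 to 0.138).

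Sparc, a collagen-binding protein of basement membranes, and Spp1, the integrin ligand osteopontin, did not pass. Sparc read 7.13, 7.10 and 7.06 against 7.29, 7.23 and 7.28 (0.17 ± 0.05, adjusted p = 0.0929). Spp1 read 3.21, 3.21 and 3.17 against 3.01, 2.87 and 2.99 (-0.24 ± 0.06, adjusted p = 0.0515). The groups were separate for both, Sparc higher and Spp1 lower with the inhibitor. Postn, Tnc, Mgp and Lum, the other 4 genes of this role, were too dim to test.

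Genes for collagen folding and crosslinking fell in 3 of 7 cases and rose in 0, with the lowest median of any role (-0.51). Serpinh1 encodes HSP47, the chaperone of procollagen in the endoplasmic reticulum. It read 2.26, 2.31 and 2.34 with DMSO and 1.38, 1.53 and 1.47 with SB431542. Every SB431542 array was lower, and the change was -0.84 ± 0.06 (1.80-fold lower, adjusted p = 0.00107). Plod2, a lysyl hydroxylase that prepares collagen for crosslinks, read 2.10, 2.22 and 2.10 against 1.51, 1.76 and 1.62. Its fall of 0.51 (SE 0.08, adjusted p = 0.0137) missed the threshold narrowly without DMSO replicates 1, 2 or 3 (0.0506, 0.0611 and 0.0517, with a range of 0.0184 to 0.0611 over all single arrays).

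Loxl1, a lysyl oxidase of elastic fibres, read -0.03, 0.09 and -0.03 against -0.61, -0.51 and -0.82. The groups were separate, and its 2 probes gave -0.66 ± 0.09 (adjusted p = 0.00902) and -0.65 ± 0.06. Loxl2, a lysyl oxidase that also crosslinks collagen IV, read 1.90, 2.00 and 2.05 against 1.22, 1.77 and 0.87. Its SB431542 arrays were all lower but spread widely, and the change of -0.70 ± 0.22 did not pass (adjusted p = 0.105). Without SB431542 replicate 2, the array nearest to DMSO, the adjusted p was 0.0186 and the change -0.94. Over all single arrays left out it ranged from 0.0186 to 0.246. The prolyl hydroxylase genes P4ha1 (-0.06 ± 0.09) and P4ha2 (-0.25 ± 0.09) and the lysyl hydroxylase gene Plod1 (0.10 ± 0.09) did not pass. P4ha2 read 1.18, 1.33 and 1.21 against 0.82, 1.07 and 1.10, with each SB431542 array lower.

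Among proteases and their inhibitors 2 of 7 fell and 0 rose (median change -0.19). Mmp14, the membrane-bound metalloproteinase that activates Mmp2, read -2.14, -2.02 and -2.23 with DMSO and -3.07, -2.80 and -2.97 with SB431542. The groups did not overlap, and the change was -0.81 ± 0.09 (1.76-fold lower, adjusted p = 0.0048). With normexp background correction it was -0.49. Mmp9, a gelatinase, read -5.09, -5.01 and -5.03 against -5.69, -5.58 and -5.94 and cleared background on 1 of the 3 SB431542 arrays. Its change of -0.69 ± 0.10 (adjusted p = 0.0102) therefore rests on values near background. It became -0.07 with normexp (adjusted p = 0.574), and its adjusted p was 0.0509 without DMSO replicate 2 and 0.00788 to 0.574 over the 17 alternatives in which it could be tested.

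The other gelatinase gene, Mmp2, changed by -0.19 ± 0.07 (adjusted p = 0.156). The metalloproteinase inhibitor genes did not pass, with Timp2 at 0.96, 0.85 and 0.80 against 1.14, 1.11 and 0.98 (0.21 ± 0.07), Timp1 at 0.07 ± 0.08 and Timp3 at 0.05 ± 0.08. Their estimates were all above 0, while those of the 3 metalloproteinase genes were all below 0, and this contrast was not tested. Serpine2, an inhibitor of thrombin and plasminogen activators, read -1.34, -1.29 and -1.18 against -1.79, -1.66 and -1.43. SB431542 replicate 3 was nearest to the DMSO arrays. The change was -0.36 ± 0.10 (adjusted p = 0.0817), and on slide 1 alone, without that array, -0.45 (adjusted p = 0.0275, with a range of 0.0275 to 0.224 over single arrays left out).

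The integrins among the members changed little, with 1 of 5 lower and 0 higher past the threshold (median change -0.17, all 5 estimates below 0). Further integrins, given below, changed in both directions and some by more. Itgb1, the beta chain shared by most receptors for fibronectin, laminin and collagen, read 1.79, 1.81 and 1.83 with DMSO and 1.56, 1.58 and 1.51 with SB431542. The groups did not overlap, and the change was -0.26 ± 0.05 (1.20-fold lower, adjusted p = 0.0251). It passed only without SB431542 replicate 3 when single arrays were left out (0.0409 to 0.106). Itga5, the alpha chain of the fibronectin receptor, read 0.56, 0.48 and 0.53 against 0.23, 0.33 and -0.04, lower on each SB431542 array (-0.35 ± 0.10, adjusted p = 0.0902). Itgb5 read 3.41, 3.41 and 3.37 against 3.23, 3.28 and 3.16 (-0.17 ± 0.05, adjusted p = 0.101). Itga6, a laminin receptor chain, changed by -0.07 ± 0.06 and Itgav by -0.09 ± 0.05, with intervals from -0.23 to 0.09 and from -0.22 to 0.04.

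The within-array ratios of integrin partners moved by 0.18 for Itga6 to Itgb1 (exact permutation p = 0.1), -0.09 for Itga5 to Itgb1 (0.5) and 0.08 for Itgav to Itgb5 (0.4). Adjusted over the 7 pairs these were 0.175, 0.5 and 0.467. The 7 pairs were chosen after the values were seen, and a ratio shows unequal change without showing which partner moved.

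**Figure D2:**
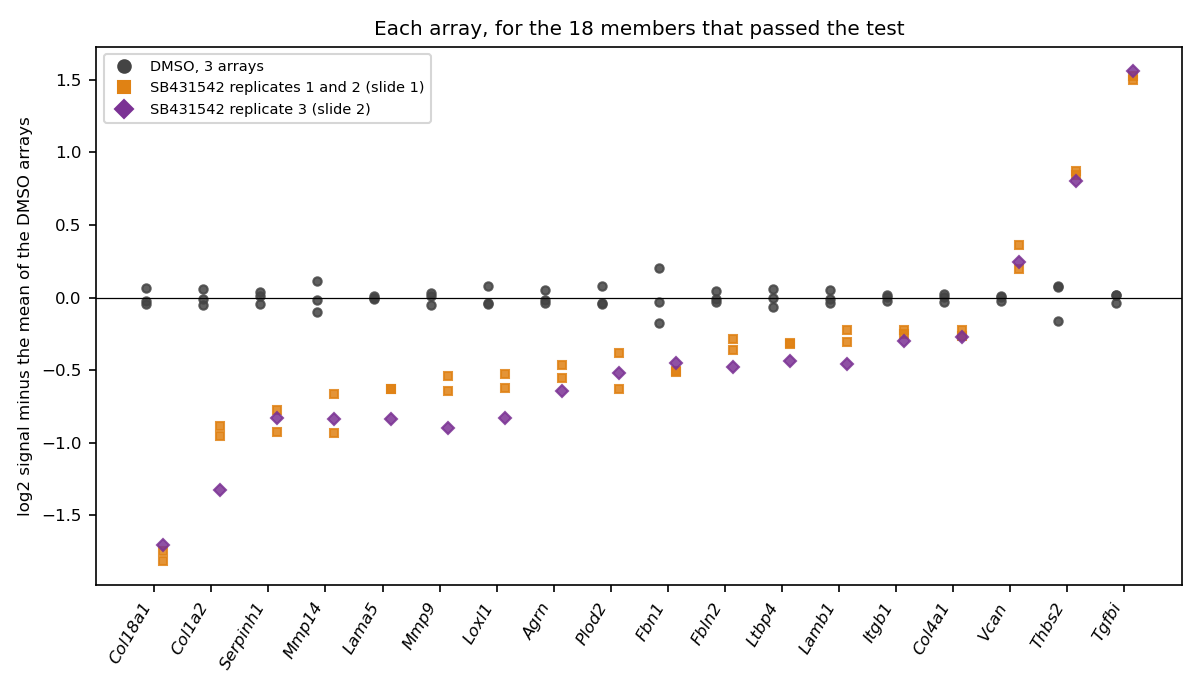
Signal on each of the 6 arrays (vertical axis, log2, minus the mean of the 3 DMSO arrays) for the 18 genes that passed the test, ordered by change. Black circles are DMSO arrays, orange squares SB431542 replicates 1 and 2 on slide 1 and purple diamonds SB431542 replicate 3 on slide 2; in each of the 18 genes the SB431542 symbols all lie on one side of the DMSO symbols.

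Where a gene had several probes, each was also tested on its own. The 56 genes had 77 probes, of which 67 were kept, and 16 genes had more than 1 kept probe. In 4 of these the probes differed in call. For Agrn the brightest probe fell by 0.55 and the other, with a change of -0.95 ± 0.28, did not pass. For Itgb1 the brightest fell by 0.26 and the other changed by -0.49 ± 0.25 without passing, and SB431542 replicate 3 read -0.52 there against 0.28 and 0.48 on the other SB431542 arrays. The estimates thus pointed the same way in both genes. For Loxl2 the 3 probes gave -0.70 ± 0.22, -0.50 ± 0.09 and -0.17 ± 0.08, and the second of these fell (adjusted p = 0.0241). P4ha1 was the gene whose probes opposed each other, with -0.06 ± 0.09 at the brightest and a rise of 0.96 ± 0.14 (adjusted p = 0.0113) at a dimmer one. The other kept Vcan probe changed by 0.10 ± 0.09, and with every probe tested the brightest Vcan probe itself missed the threshold (adjusted p = 0.0521).

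**Figure D3:**
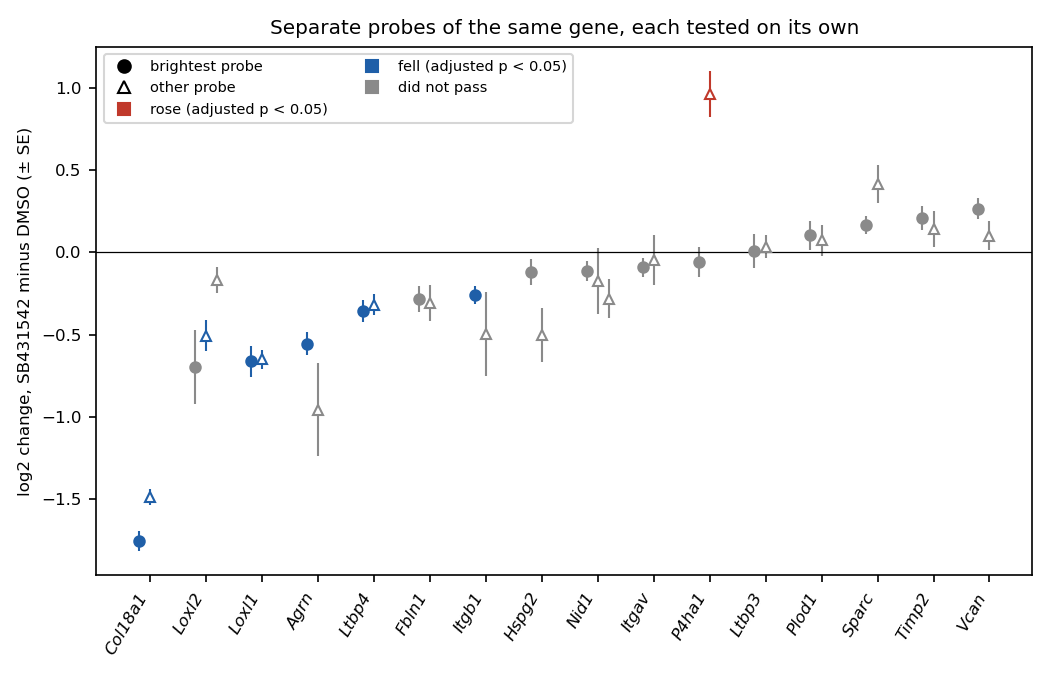
Log2 change (vertical axis, SB431542 minus DMSO, bars ± SE) of each kept probe for the 16 genes with more than 1, with filled circles for the brightest probe and open triangles for the others. Colour gives each probe's own call; Col18a1, Loxl1 and Ltbp4 fell at both probes, while the dimmer P4ha1 probe rose by 0.96 and the brightest changed by -0.06.

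A further 170 genes of the matrix, its processing and its receptors were examined beside the members. Of these, 134 were tested, 32 were too dim and 4 had no matched probe. Among the 134, 16 rose (11.9%) and 27 fell (20.1%), with a median of 0.02, equal to that of all features to 2 decimals. Thus 32.1% of them changed, against 36.7% of the members and 12.6% of all features, with a more even split of directions, and this difference was not tested. Of the 134, 5 were well above background with DMSO only and had to be lower, and 0 with SB431542 only. Among the tested members there were 0 of either kind. Of the 5, Fbln5, Thbs4, Dcn and Mmp25 are counted among the falls, and Lama4 did not pass. With only probes well above background on all 6 arrays, 22 of the other matrix genes fell and 18 rose.

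Collagens other than the members mostly did not pass, with 2 of 17 lower and 0 higher. Col8a2, a short-chain collagen, read -2.88, -2.70 and -2.94 with DMSO and -5.01, -5.21 and -5.28 with SB431542, a change of -2.33 ± 0.10 (adjusted p = 0.000247) that was -0.88 with normexp. Col16a1 fell by 0.42 at its brightest probe (adjusted p = 0.0277). Its probes disagreed, so that their mean changed by 0.07, and its adjusted p was 0.0255 to 0.0988 without single arrays and passed only without SB431542 replicate 3. Under normexp its change was -0.26. Of the other basement membrane genes 3 of 16 rose and 2 fell. Frem2, which anchors epithelium to dermis in development, rose by 1.43 ± 0.06, from -0.63, -0.58 and -0.51 to 0.84, 0.83 and 0.90 (adjusted p = 0.000217). Frem1, which encodes a partner in the same complex, fell by 1.46 (SE 0.18, adjusted p = 0.00557) and was near background, with a change of -0.26 under normexp. Lamb3 (0.60 ± 0.11) and the peroxidasin gene Pxdn (0.33 ± 0.06), whose enzyme crosslinks collagen IV, rose with all arrays, with adjusted p of 0.0202 and 0.0265. The call was lost without DMSO replicate 1 or 2 or SB431542 replicate 2 or 3 for Lamb3 (0.0259 to 0.0818 over single arrays) and without any single array for Pxdn (0.0535 to 0.0923). Under normexp the Lamb3 change was 0.35.

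Of the other glycoproteins and proteoglycans 1 of 32 rose and 8 fell. These falls include Fbln5, Thbs4 and Dcn, which passed the filter through DMSO only and so had to be lower. Ccn2, a matricellular gene long studied as a TGF-beta target, fell by 0.92 (SE 0.08, adjusted p = 0.0022), from 2.48, 2.35 and 2.31 to 1.58, 1.47 and 1.34. The microfibril gene Mfap4 fell by 0.96 (SE 0.11). The elastic fibre gene Fbln5 was at least 3.18-fold lower and Thbs4 at least 2.09-fold lower, since neither was well above background on any SB431542 array. These bounds hold for the main processing, and with normexp, which adds an offset, the changes were -0.35 and -0.22. Collagen processing enzymes gave 1 rise and 4 falls among 16. Pcolce2, an enhancer of procollagen cleavage, changed by -0.70 ± 0.07, the transglutaminase gene Tgm2 by -0.56 ± 0.08 and Colgalt2, which glycosylates collagen, by -0.89 ± 0.14. The procollagen peptidase gene Adamts14 rose by 0.45 ± 0.06 (adjusted p = 0.00643), and the mean of its probes did not pass (0.107). Colgalt2 had an adjusted p of 0.0118, and of 0.0544 and 0.0536 without DMSO replicates 2 and 3 (0.00405 to 0.0544 over single arrays), and its change was -0.29 under normexp.

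Proteases and their inhibitors beyond the members changed in 13 of 26 cases, with 5 rises and 8 falls. Plat, the tissue plasminogen activator, rose by 0.89 ± 0.10 (adjusted p = 0.00383; 0.30 under normexp). Serpinf1 fell by 1.05 (SE 0.05) and Mmp11 by 0.62 (SE 0.07). Among 27 further integrins and matrix receptors 6 rose and 3 fell. Itgb3, the beta chain that pairs with Itgav in a receptor for RGD ligands, rose from -1.45, -1.58 and -1.41 to -0.31, -0.32 and -0.30 (1.17 ± 0.06, adjusted p = 0.000448). The syndecan gene Sdc4 rose by 0.86 ± 0.06 and Itga9 fell by 0.71 (SE 0.07). The leukocyte integrin gene Itgal rose by 0.38 ± 0.07 (adjusted p = 0.02), and this call was lost without DMSO replicate 1, 2 or 3 or SB431542 replicate 2 (0.0353 to 0.0746 over single arrays). Dcn and Col6a3 stand both in these lists and among the fibroblast markers.

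**Figure D4:**
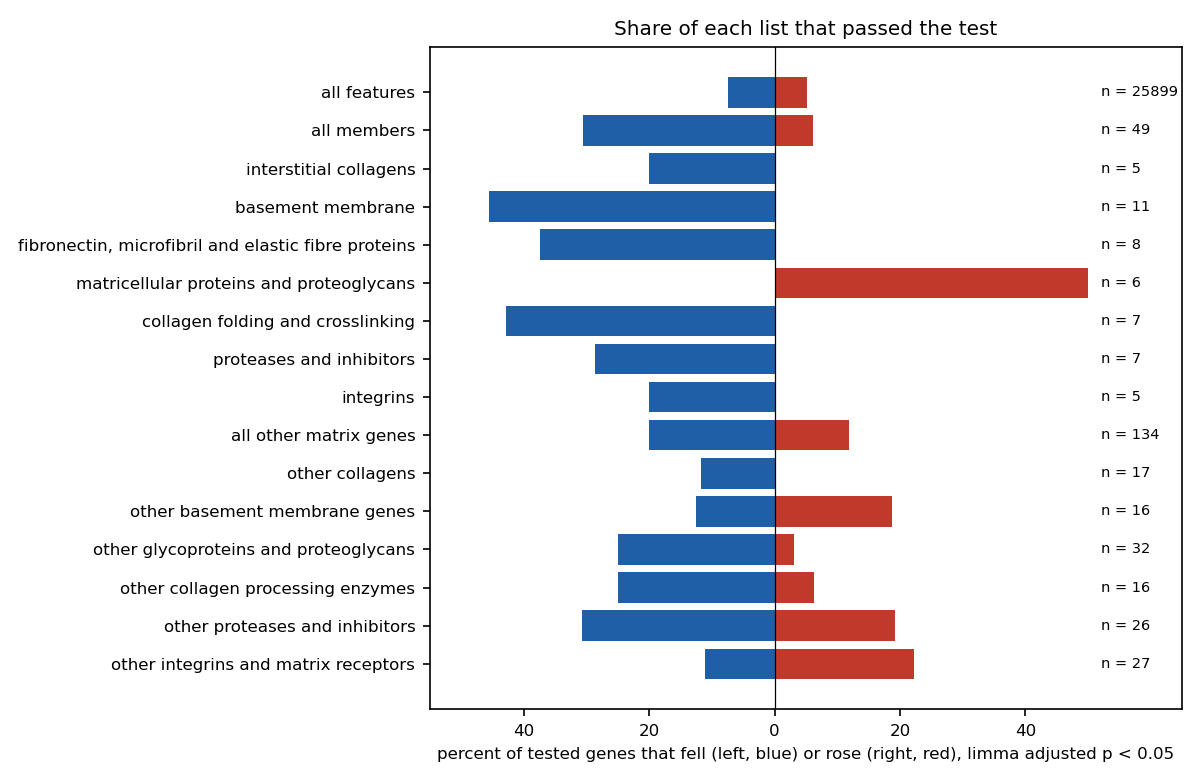
Percent of tested genes that rose (red, right) or fell (blue, left) past the limma adjusted threshold of 0.05, for all features, the members, each role and the lists of other matrix genes, with the number tested at the right. The members show 30.6% falls and 6.12% rises against 7.39% and 5.19% of all features; rises among the members appear in the matricellular and proteoglycan role only.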

How the data were processed

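RNA of 6 samples was measured on 1-colour Agilent arrays (Cy3). The intensity of each spot was background-subtracted and detrended by the authors with Feature Extraction 10.7.3.1, per the file headers (10.7 in the submitters' processing notes), and was deposited without normalization between arrays. The deposited flags (well above background, outlier) are a score of 0 or 1 per the file headers. A log2 table deposited by the authors, normalized in a way not given in the sources used here, served as an alternative.

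Each array had 62976 spots and 55681 non-control probes. Outlier spots were left out, spots of a probe averaged, and log2 values taken relative to each array's 75th percentile. Accessions were matched to RefSeq (GRCm38.p6), which named 27235 probes. The array grid uses mm9, so no probe positions are given, and promoter windows and start sites are RefSeq's on GRCm38.p6. Probes that cleared background on 3 or more of 6 arrays were kept, and the brightest stood for a gene. Groups, from the sample titles, were compared with limma 3.58.1 in R 4.3.3 (lmFit, eBayes, two-sided, Benjamini-Hochberg over 25899 features, threshold 0.05), after a test on simulated data. Figures used Python 3.11.15 and matplotlib 3.10.9. Alternatives covered normalization, background correction, the filter, probe choice, eBayes settings, threshold, slide, replicate block and each array left out. The normexp alternative used median spot and background signals (offset 50), since the files used hold no mean signal. Precision is limited by the number of arrays.

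The members and lists were chosen with earlier results of these data known. Each member past the threshold is named. Values on all arrays are given for members past it with a log2 change of at least 0.5 and for up to 2 others per role, and some further ones shown were chosen after their values were seen. Of other matrix genes up to 4 per list with the smallest adjusted p are named, except 1 gene that is not reported here and stays in the counts. "At least N-fold" is the mean of the brighter group against a floor for the dim one, which on each array is the lowest signal well above background or the probe's own signal if that is higher. Promoters cover 39 of 56 genes. Protein sequences were not used here.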

Additional observations from a re-analysis of the deposited data

How the results depend on the processing

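Of the 18 members that changed, 9 kept their call under all 18 alternatives and none changed sign. Of the 31 that did not pass, 13 passed under at least 1. The 15 members that fell became 7 at an adjusted p under 0.01 and 7 to 14 with single arrays left out, and the 3 that rose 2. Some settings raised the number of falls. With trend and robust eBayes 21 members fell and 4 rose, and 4240 of all features changed. With normexp 19 members fell and 2 rose. Of other matrix genes, the 16 that rose became 8 at 0.01 and 8 to 16 without single arrays, and the 27 that fell 14 at 0.01, 15 with no filter on dim probes and 14 to 23 without single arrays. Over all features, the 3257 changed became 1222 at 0.01, 2097 with no filter and 1467 to 2911 without single arrays. DMSO replicate 2 gave the lowest of these ranges for the members that fell. With the slide as a block, which is the fit without SB431542 replicate 3, 14 members fell and 2 rose.

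Deviations from the group means of same-numbered arrays correlated at 0.0018, 0.0716 and -0.0577, and not every array correlated best with its own number. No pairing by replicate number was thus visible, and so few arrays cannot show that there was none. With the replicate block, 9 members fell, 15 other matrix genes fell, 9 rose, and 1567 features changed.

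Signs turned only in genes that did not pass or whose probes disagree. Without single arrays, Col3a1 ranged from -0.11 (SB431542 replicate 1) to 0.16, with -0.05 and -0.0067 without DMSO replicates 2 and 3, Fn1 from -0.020 (SB431542 replicate 2) to 0.15, Timp3 from -0.016 (SB431542 replicate 1) to 0.11, P4ha1 from -0.12 to 0.0015 (DMSO replicate 2) and Ltbp3 from -0.081 (SB431542 replicate 3, the same as the slide block) to 0.10, with -0.02 without DMSO replicate 3. Ltbp3 also became -0.0067 under normexp and -0.013 with the percentile over detected probes. With probes of a gene averaged, P4ha1 became 0.45 (adjusted p = 0.0487) and Col16a1 0.065. The cause was not tested. Signal over background limits Mmp9, Thbs1 and Col3a1.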
